A study of Mus musculus with 1012 samples.

Results

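The cytosolic ribosomal protein genes were taken here as the protein-coding mouse genes whose symbol begins with Rpl or Rps and a number, or is Rplp with a number or Rpsa, without the Rps6k kinases. The rule found 92 of the 30452 features of the count table, 57 named for the large and 35 for the small ribosomal subunit. Of these, 77 encode core proteins of the ribosome, 8 are paralogues (Rpl3l, Rpl7l1, Rpl10l, Rpl22l1, Rpl36al, Rpl39l, Rps27l and Rps27rt), 6 are copies with "-ps" in their name that the annotation lists as protein-coding, and 1, Rps19bp1, encodes a protein that binds Rps19 and is caught by its name. Core genes that carry other names, such as Fau and Rack1, are not found by the rule and were counted with the translation genes. All 92 had a count in some cell.

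Each cytosolic ribosome holds 1 copy of nearly every ribosomal protein, so that cells make these proteins in matched amounts. Much of that control acts on translation: the messages of ribosomal proteins begin with a run of C and T (a terminal oligopyrimidine, or TOP, motif) through which mTOR signalling sets how far they are translated, and growing cells devote a large part of their messenger RNA to them. Paralogues such as Rpl3l, Rpl10l and Rpl39l are known mainly from muscle or testis, whereas Rps27l is a target of p53.

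Live-seq draws cytoplasm from a living cell with a fluidic probe and sequences it by an enhanced Smart-seq2, and scRNA-seq here is Smart-seq2 of whole lysed cells. There were 296 Live-seq and 554 scRNA-seq cells in 5 groups. These were RAW_Mock (macrophage-like RAW264.7 cells given PBS), RAW_LPS (given lipopolysaccharide, LPS, a bacterial cell wall component), IBA (an immortalised line of brown preadipocytes from male C57BL6/J mice), ASPC_Pre (primary adipose stem and progenitor cells from subcutaneous fat of female C57BL/6J mice) and ASPC_Post (the same after 2 days of dexamethasone, IBMX, insulin and rosiglitazone). By scRNA-seq there were 16, 46 and 95 RAW_Mock, 15, 46 and 88 RAW_LPS and 15, 45 and 93 IBA cells in batches 8_8, 9_1 and scRNA. ASPC_Pre had 16 cells in 8_8 and 44 in 9_1, where the 35 of ASPC_Post were. Live-seq had 8, 20, 63 and 12 RAW_Mock and 4, 16, 9 and 10 RAW_LPS cells in batches 6, 7, 8_8 and 9_4, 44 IBA, 61 ASPC_Pre and 37 ASPC_Post cells. The RAW cells were of the subline G9, a clone with a Tnf-promoter mCherry reporter and EGFP-Rela, except for 11 RAW_LPS cells and 1 RAW_Mock cell of the wild-type line in Live-seq batch 5Reseq. The lines had not been authenticated. A further 162 IBA cells, all of batch 8_1, were lysed 1 h (49 cells) or 4 h (43 cells) after Live-seq, or at 0 h without it (70 cells).

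The counts of a state's cells in a batch were added up if there were 3 or more, giving 15 Live-seq sums of 1968561 to 24576618 counts and 12 scRNA-seq sums of 5390496 to 45563500. A cell had a median of 83 members with a count in Live-seq (57 to 87) and of 84 in scRNA-seq (79 to 90). The markers followed the labelled cell types, with 9 of 9 tested macrophage genes lower and 9 of 10 mesenchymal genes higher in IBA than in RAW_Mock by scRNA-seq, and 9 of 9 and 7 of 10 by Live-seq. A list of 20 genes seen in cell-free negative controls took 11.7 to 41.1% of the counts of a sum in Live-seq and 15.6 to 34.6% in scRNA-seq. Live-seq batch 6 had the highest of these values (41.1%, RAW_Mock) and only 8 RAW_Mock and 4 RAW_LPS cells in its sums.

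To see whether the sequence feature that these genes are known for is visible, the annotated start sites were examined in RefSeq's promoter table (GRCm38.p6), which held 66 of the 92 members. The windows run from 25 bases before to 25 after the annotated start, and capitals mark the longest unbroken run of C and T. The first 3 belong to members with a long run (Rpl4, the most counted member, Rps6, the target of the S6 kinases, and Rplp2, of the stalk), and the rest to members whose values between states are described further on.
Rpl4 (chr9:64173362-64173411, plus strand): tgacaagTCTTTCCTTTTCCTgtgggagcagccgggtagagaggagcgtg
Rps6 (chr4:86857343-86857392, minus strand): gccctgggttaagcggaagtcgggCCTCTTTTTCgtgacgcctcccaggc
Rplp2 (chr7:141447626-141447675, plus strand): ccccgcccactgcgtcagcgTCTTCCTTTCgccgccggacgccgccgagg
Rpl22l1 (chr3:28805483-28805532, plus strand): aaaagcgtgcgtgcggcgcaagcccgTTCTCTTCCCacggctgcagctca
Rpl26 (chr11:68901541-68901590, plus strand): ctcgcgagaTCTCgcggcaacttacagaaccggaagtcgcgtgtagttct
Rpl36al (chr12:69184043-69184092, minus strand): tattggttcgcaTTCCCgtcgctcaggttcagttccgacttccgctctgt
Rpl39l (chr16:10170203-10170252, plus strand): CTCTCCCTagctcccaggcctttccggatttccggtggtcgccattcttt

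The run was 14 bases in Rpl4, 10 in Rps6, Rplp2 and the paralogue Rpl22l1, 4 in Rpl26, 5 in Rpl36al and 8 in Rpl39l, where it lies at the edge of the window. A run of at least 8 anywhere in the window was present in 30 of the 66 members (45.5%), against 18.9% of the 17492 protein-coding genes of the table. Such a run need not begin at the start as a TOP motif does, and that of Rpl4 ends before the annotated start. The motif CCGGAAG, the core of an ETS factor site, was found on either strand of the 300-base promoters (250 before and 50 after the start) in 37.9% of members and 11.9% of all, TATAAA in 9.09% and 13.3%, and CACGTG in 7.58% and 7.90%. These matches describe letters near an annotated start, and the start a cell uses may lie elsewhere.

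Levels differed widely among the members. Over the scRNA-seq sums the 6 most counted were Rpl4 (a mean of 2765 CPM, the counts scaled to the same total in every sum), Rplp0 (2153), which anchors the stalk of the large subunit, Rpsa (1428), the laminin receptor precursor, Rpl8 (1238), Rps3 (1230) and Rps3a1 (1069). Together these took 25% of all ribosomal protein counts. Scaling per kb of the principal transcript allows for its length, though not for the limits on counting described below. On this scale Rpl4 was again high with 1798 CPM per kb, near Rplp1 with 1683, Rplp0 with 1585 and Rpl8 with 1455. The median core member stood at 497. The large and small subunits had medians of 444 (46 core members) and 560 (31 core members) CPM per kb.

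Because ribosomal protein genes have many processed copies in the genome and the reads were counted only where they mapped uniquely, the share of each member's transcript that can be told from other genes was computed from the GENCODE transcripts. Across members, a median of 52.1% of 75-base windows, the length of a read, occurred in no other annotated gene. The share was 1.48% for Rps27, 8.14% for Rpl10 and 15.9% for Rps6, but 100% for Rps3, Rpl39l and Rpl3l, and 45 of the 92 members were below 50%. Among the 77 core members the level per kb was nearly unrelated to this share (Spearman's rho 0.07, across genes, a description), with medians of 538, 446 and 629 CPM per kb for the 18 members below 25%, the 44 between 25 and 75% and the 15 from 75% upwards. Another limit is exons shared with another gene, since such reads are ambiguous to the counting. The 9 core members with over 25% of their bases in exons of another gene had a median of 162 CPM per kb, against 529 for the 63 with none. Rpl24, a large-subunit protein, was the extreme with 71.5% of its bases in exons of Gm28037, and had 0.883 CPM and a count in 25.1% of scRNA-seq cells and 9.46% of Live-seq cells. Reads that fall in the shared bases are assigned to neither gene by such counting, and the part of shared exons and copies in the level of any member was not tested.

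**Figure D1:**
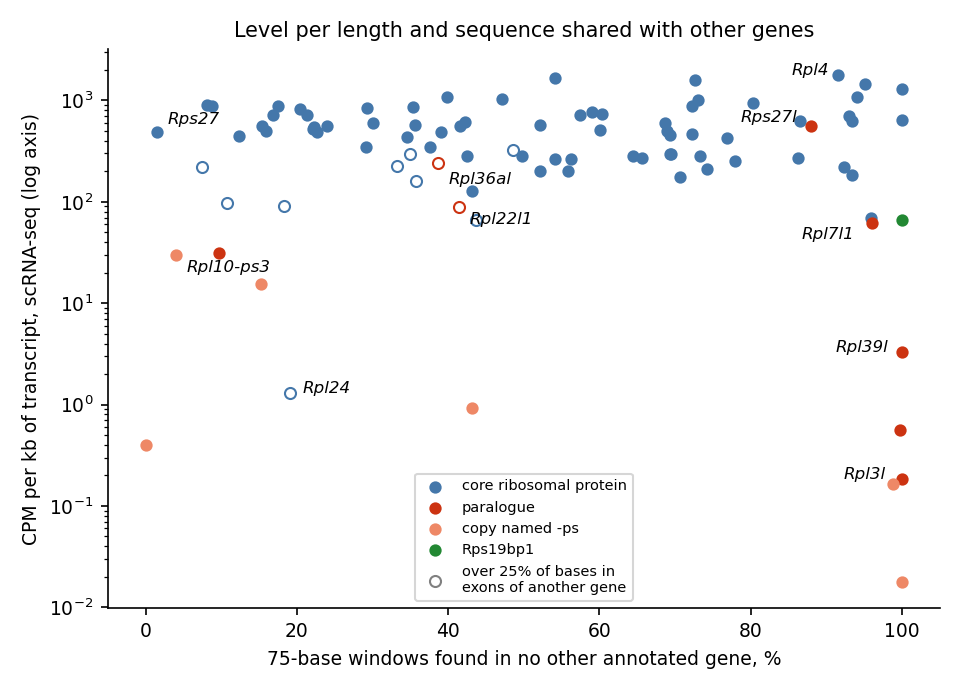
Each point is 1 of the 92 ribosomal protein genes, with the share of 75-base windows of its principal transcript found in no other annotated gene on the x axis (percent) and its mean level over the 12 scRNA-seq sums on a log y axis (CPM per kb). Open points have over 25% of their bases in exons of another gene. Core members lie between 66.7 and 1798 CPM per kb, apart from Rpl24 at 1.3, while the -ps copies lie at 29.6 or below.

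The paralogues differed widely in their counts. Rpl3l (0.256 CPM in scRNA-seq) and Rpl10l (0.577) were close to absent, with counts in 6.14% and 4.51% of scRNA-seq cells, and did not pass the filter on low counts, as did 4 of the -ps copies, so that 86 of the 92 members were tested. Rps27l, at 555 CPM per kb beside 485 for Rps27, made up 52.9 to 83.1% of the counts of Rps27l and Rps27 together in scRNA-seq and 30.3 to 82.9% in Live-seq. Their transcripts have 499 and 345 bases, and 88.0 and 1.48% of windows found in no other gene, so that the counts do not give the ratio of the messages. Rpl7l1, which is known to act in ribosome assembly in the nucleolus, stood at 62.3 CPM per kb beside 767 for Rpl7, Rpl22l1 at 88.7 beside 699 for Rpl22, Rpl36al at 240 beside 559 for Rpl36a, and Rps27rt at 31.6. Rps4x, the copy of Rps4 on the X chromosome, stood at 1029 CPM per kb. Of the -ps copies, Rpl10-ps3 reached 29.6 and Rpl9-ps6 15.6 CPM per kb, with 4.03% and 15.2% of their windows found in no other gene.

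The first question was what share of the counts these genes take, by state, technique and batch. Since reads shared with other genes are not counted, this is not their share of messenger RNA. In scRNA-seq, RAW_Mock sums held 4.51, 4.25 and 3.14% ribosomal protein counts in batches 8_8, 9_1 and scRNA, RAW_LPS 4.15, 4.62 and 2.92%, IBA 5.43, 5.25 and 3.16%, ASPC_Pre 4.44 and 2.6% in the first 2 of these, and ASPC_Post 2.6% in 9_1. The ranges of RAW_Mock, RAW_LPS, IBA and ASPC_Pre overlapped, and for RAW and IBA cells batch scRNA was the lowest of the 3. In Live-seq, RAW_Mock sums held 6.20, 4.42, 3.11 and 2.81% in batches 6, 7, 8_8 and 9_4. RAW_LPS held 5.87, 3.56, 2.88 and 3.07% in the same and 3.58% in 5Reseq, IBA 3.04, 3.73 and 2.46% in 7, 8_8 and 9_4, ASPC_Pre 3.35 and 2.13% in 8_8 and 9_4, and ASPC_Post 2.03% in 9_4. The IBA cells of batch 8_1 held 6.56 to 7.94%, so that IBA cells alone spanned 2.46 to 7.94%. These were the highest sums as counted, but with the 20 negative-control genes left out of the total RAW_Mock of Live-seq batch 6 was higher, at 10.5% against 7.83 to 9.60% in batch 8_1, and RAW_LPS of batch 6 stood at 7.79%. Without batch 8_1, batches of the same state differed by up to 2.21-fold within a technique (RAW_Mock, Live-seq), and states within a batch by up to 2.02-fold (9_1, scRNA-seq). With the negative-control genes left out these sums ran from 3.69 to 10.5% and from 3.95 to 7.06%.

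**Figure D2:**
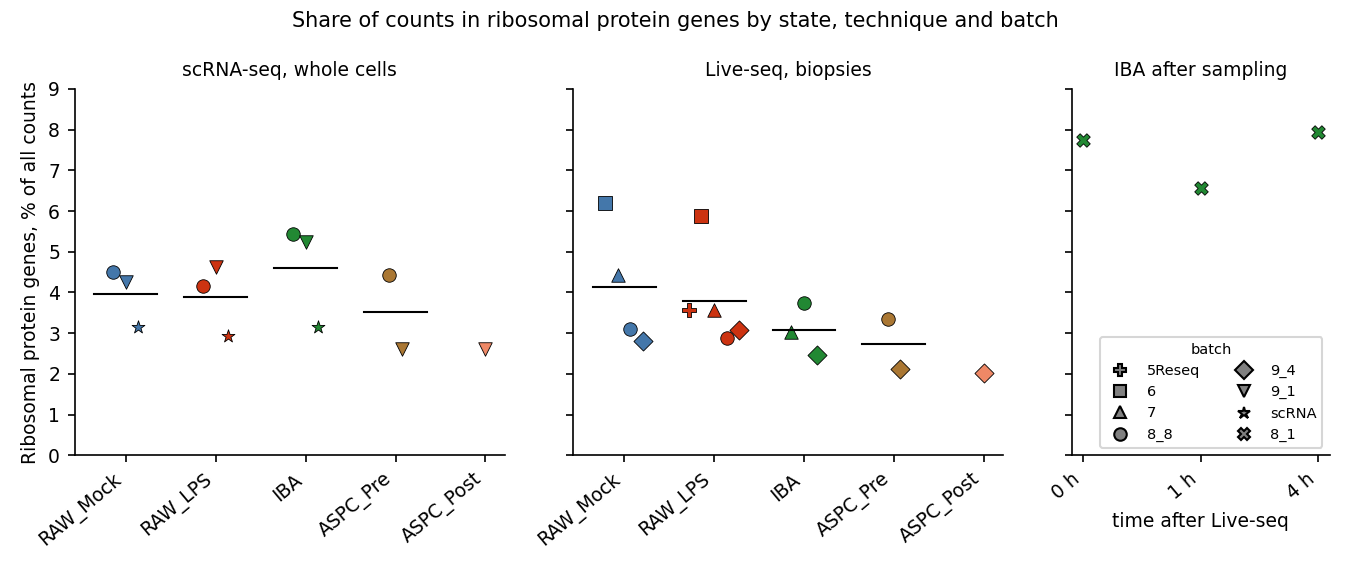
Ribosomal protein counts as a percent of all counts (y axis, from 0) for each sum of a batch and state, with the mean over batches as a line; symbols are batches and colours are states. Batches of RAW_Mock span 2.81 to 6.20% in Live-seq, and batch 8_1 lies at 6.56 to 7.94%, above all other sums on this scale, though not above RAW_Mock of Live-seq batch 6 when the negative-control genes are left out.

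Single cells varied more than sums. Shares ran from 0.634 to 15.2% over Live-seq cells (median 2.95%), from 0.681 to 14.4% over scRNA-seq cells (median 3.17%) and from 3.47 to 18.4% over the IBA cells of batch 8_1 (median 7.56%). Within a batch and state of at least 10 cells, the share rose and fell with that of other translation genes (median Spearman's rho 0.78 over 12 Live-seq and 0.74 over 12 scRNA-seq groups of 10 to 95 cells, positive in all of them). These are shares of 1 total, and the value is a description. With genes detected the median rho was -0.18 and -0.28, ranging from -0.91 to 0.36, and with the mitochondrial share it was -0.35 and -0.21.

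Batches differed in which members were counted as well as in how much. In RAW_Mock cells by scRNA-seq, the 22 core members with a transcript under 600 bases were higher in batch 9_1 than in batch scRNA by a median log2 ratio of 1.05, and the 24 with at least 1000 bases by 0.39 (Spearman's rho of ratio and length -0.62 over 76 core members, a description across genes). The same held in RAW_LPS (1.40 and 0.58, rho -0.61) and IBA cells (1.31 and 0.64, rho -0.52). Thus Rps27, with 345 bases, stood at 267 and 48.3 CPM in RAW_Mock and at 440 and 46.3 CPM in IBA, whereas Rpl4, with 1538 bases, stood at 2888 and 3765 CPM in RAW_Mock. In Live-seq it varied, with a rho against batch 8_8 of -0.53 (RAW_LPS) and -0.25 (RAW_Mock) for batch 6, of -0.33 (RAW_Mock) and -0.23 (IBA) for batch 9_4, and of 0.38 for batch 7 in RAW_Mock, where it turned round. What set the batches apart was not tested.

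LPS activates macrophages, and the next question was whether the ribosomal protein genes respond to it. By scRNA-seq the share after LPS differed from that of RAW_Mock by -0.362 and -0.228 percentage points in batches 8_8 and scRNA and by 0.370 in 9_1, a mean difference of -0.0733 ± 0.390 (SD, n = 3 batches; exact paired permutation test, two-sided, p = 1.00, where 3 pairs allow no less than 0.25). By Live-seq the differences were -0.330, -0.861 and -0.229 points in batches 6, 7 and 8_8 and 0.255 in 9_4 (mean -0.291 ± 0.457, SD, n = 4; exact p = 0.375, with 0.13 the least possible). Neither mean was stable: that of Live-seq was -1.02 with the 20 negative-control genes left out and -0.102 without batch 7, and that of scRNA-seq turned to 0.0117 as a mean over cells, 0.0712 without batch 8_8 and 0.00396 without batch scRNA. The mean differences of the techniques, -0.291 and -0.0733, were not separable either (exact permutation test over 7 batch differences, two-sided, p = 0.457). Batch 8_8 gave a difference to each technique, and this test took them as separate.

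Gene by gene, none of the 86 tested members was called after LPS in scRNA-seq by edgeR's quasi-likelihood test, where 1.19% of all 13664 genes were, and none had an unadjusted p below 0.05. DESeq2 also called none, beside 6.4% of all genes. In scRNA-seq the median log2 fold change of the members was 0.09, against 0.01 for all genes, and -0.03 against -0.08 when libraries were scaled to counts outside the members. In Live-seq 0 members and 0% of all genes were called, with 0 members below an unadjusted p of 0.05 and 0 called by DESeq2, which called 649 genes (4.78%). There the members had a median of -0.20 and all genes -0.43, with -0.16 and -0.08 by DESeq2. The log2 fold changes of the techniques had, over the 86 members, a Pearson's r of 0.11 and a Spearman's rho of 0.29, a description across genes. Without Rpl39l the Pearson's r was 0.47 (other genes, 0.26). Across the 7 batch pairs of both techniques, 2 members were higher after LPS in every pair, beside 1.90% of all genes, and 1 was lower in every pair, beside 3.32%. The share of members so found is near that of all genes. They are named here after their values were seen. Rpl22l1 stood at 54.4, 80.1 and 59.8 CPM after LPS against 30.3, 57.1 and 41.9 CPM in the 3 scRNA-seq batches (fitted log2 fold change 0.71, SE 0.34, adjusted p = 0.403) and stood at 187, 72.9, 49.3 and 36.3 against 37.7, 70.9, 36.7 and 20.7 CPM in Live-seq batches 6, 7, 8_8 and 9_4. Of its bases, 28.8% lie in exons of Gm33051. Rpl29 was the other higher member, with 62.7, 58.5 and 43 against 56.5, 45.6 and 39.5 CPM in scRNA-seq (log2 fold change 0.34, SE 0.23, adjusted p = 0.597). The lower one was Rpl3, a core protein near the peptidyl transferase centre, with 1072, 1026 and 1057 against 1285, 1060 and 1101 CPM in scRNA-seq, where the fit with its own scaling gave a log2 fold change of 0.01 (SE 0.21).

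IBA cells were compared with RAW_Mock cells to see whether a preadipocyte line and a macrophage line make the same set of ribosomal proteins. By scRNA-seq 16 of 86 members were called, 13 higher and 3 lower in IBA, which is 18.6% of members beside 37.6% of all genes, and the median log2 fold change was 0.16 both for members and for all genes. DESeq2 called 25 (29.1%, beside 41.5% of all genes), the fit without the batch block 5 (5.81%, beside 30.1%) and the fit without batch scRNA 6 (6.98%, beside 22.4%). When libraries were scaled to ribosomal protein counts alone, 7 members were higher and 7 lower (16.3%, beside 34.7%).

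Rpl26, a large-subunit protein at the tunnel exit, known also for binding p53 messenger RNA, stood at 124 to 232 CPM in the 3 sums of IBA and at 72.4, 63.6 and 42.6 CPM in RAW_Mock (batches 8_8, 9_1 and scRNA, the order kept below). The groups did not overlap, and its log2 fold change was 1.59 (SE 0.18, adjusted p = 2.04e-04, edgeR). Rplp0 stood at 3692, 3761 and 2524 against 1640, 1519 and 1207 CPM (log2 fold change 1.18, SE 0.23, adjusted p = 0.00331). Its partner in the stalk, Rplp1, was higher by 0.93 on the log2 scale (SE 0.20, adjusted p = 0.00537), with 1343, 1502 and 610 against 738, 682 and 353 CPM. The groups of Rplp1 overlapped across batches, though IBA was higher within each. Rplp2, the third stalk protein, had a log2 fold change of 0.03 (SE 0.23, adjusted p = 0.936) and overlapping groups. Rps2, of the mRNA channel of the small subunit, stood at 906, 742 and 585 against 461, 324 and 302 CPM, again without overlap (log2 fold change 1.04, SE 0.20, adjusted p = 0.00323). Rpl39 (log2 fold change 1.31, SE 0.25, adjusted p = 0.00349) and Rps28 (1.05, SE 0.34, adjusted p = 0.0348) were higher too, but their CPM overlapped between the cell types across batches, with 166, 498 and 76.2 in IBA for Rpl39, of which the last lay below RAW_Mock of batches 8_8 (78.1) and 9_1 (the highest of RAW_Mock, near the 166 of IBA), and with 29.4 to 450 against 17.2 to 133 for Rps28. Within each batch, IBA was higher for both genes. Without batch 9_1, Rps28 was not called (adjusted p = 0.276). Another 7 higher members, named here after their values were seen (Rpl13, Rpl21, Rpl23a, Rpl30, Rpl35a, Rps19bp1 and Rps21), had log2 fold changes of 0.64 to 0.89.

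Of the 3 lower members, Rpl36al, the autosomal paralogue of the X-linked Rpl36a, stood at 75.4, 76.3 and 36.6 CPM in IBA and in RAW_Mock at 245 and 240 CPM in batches 8_8 and 9_1, with no overlap in the third (log2 fold change -1.62, SE 0.23, adjusted p = 6.64e-04), and made up 16.3 to 24.6% of the 2 genes' counts in IBA against 33.8 to 38.6% in RAW_Mock. Of its bases, 63.1% lie in exons of Gm49383, which limits what is counted in both cell types. Rps7, a small-subunit protein also known to bind MDM2, stood at 364 and 318 CPM in IBA batches 9_1 and scRNA against 705 and 611 CPM in RAW_Mock, with no overlap over the 3 batches (log2 fold change -0.86, SE 0.24, adjusted p = 0.0180). Rps3, an entry channel protein with a part in DNA repair, with 1222, 1050 and 764 against 1655, 1594 and 1226 CPM, fell by 0.58 on the log2 scale (SE 0.19, adjusted p = 0.0376). Without batch scRNA, the adjusted p was 0.151 for Rps7 and 0.284 for Rps3. Rps6, Rpsa and Rps27a, the ubiquitin fusion, were not called, with log2 fold changes of 0.04 for Rps6, 0.28 for Rpsa and -0.20 for Rps27a.

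**Figure D3:**
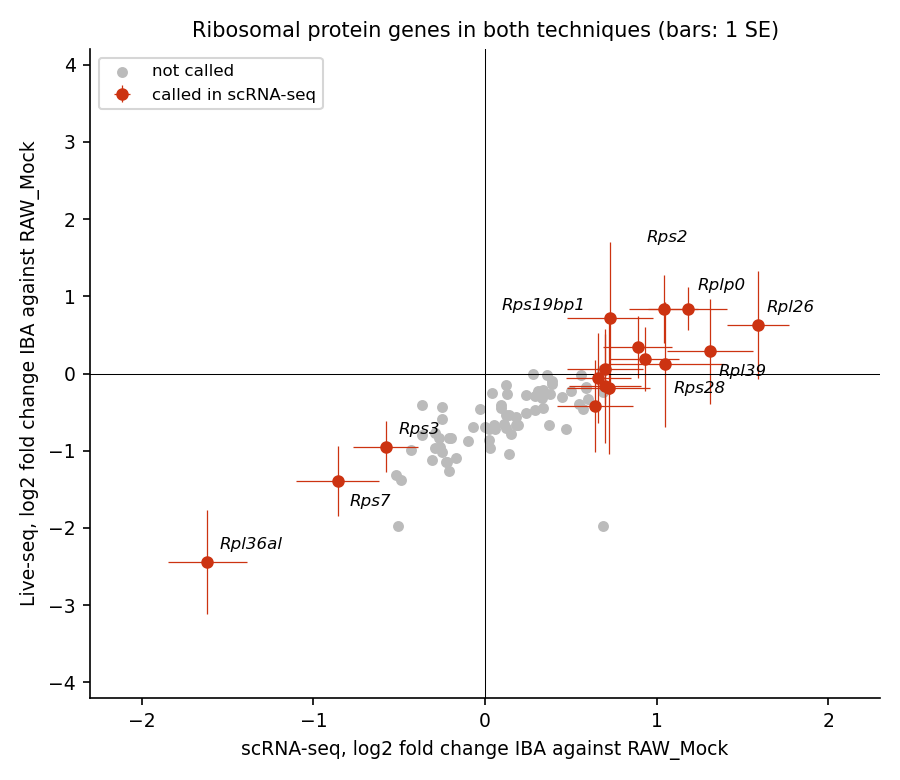
Log2 fold changes of the 86 tested ribosomal protein genes between IBA and RAW_Mock in scRNA-seq (x axis) and Live-seq (y axis), with bars of 1 SE for the 16 members called in scRNA-seq. Of the 16, Rpl36al, Rps7 and Rps3 lie below 0 and Rpl26, Rplp0 and Rps2 above 0 in both.

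In Live-seq, none of the 86 members was called for the same comparison, beside 2.12% of all genes, and DESeq2 called 3 (3.49%, beside 11% of all genes). Though 12 had an unadjusted p below 0.05, the share of all genes below it was not worked out. Across the 86 members, the log2 fold changes of the techniques, which share no library, had a Pearson's r of 0.81 and a Spearman's rho of 0.81, a description across genes (other genes, 0.82 and 0.73, n = 13478). Rpl36al stood at 20.8, 39.2 and 32.9 CPM in IBA against 115 to 253 in RAW_Mock (log2 fold change -2.44, SE 0.67, adjusted p = 0.107), again without overlap. Rplp0 did not overlap either, with 3125, 3507 and 2547 against 2139, 1978, 1370 and 1364 CPM (log2 fold change 0.84, SE 0.28, adjusted p = 0.185). Rps2 and Rpl26, which had not overlapped in scRNA-seq, did so here across batches, with 486, 969 and 495 against 506, 395, 331 and 269 CPM for Rps2. The 506 CPM was of batch 6, which had no IBA sum, and Rps2 was higher in IBA within batches 7, 8_8 and 9_4. Rpl26 was higher in IBA within batches 8_8 and 9_4 but not in 7 (69.6 against 71.6 CPM). Of the 16 members called in scRNA-seq, 12 had the same sign here. The median of the members was -0.47 in Live-seq and that of all genes near 0, and -0.19 against 0.25 with DESeq2 or RLE scaling. With the TMM scaling of the first values it was -0.22 against 0.06 without batch 7 and -0.80 against 0.10 without batch 8_8.

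Primary progenitors were then compared with the immortalised line. The ribosomal protein share was lower in ASPC_Pre than in IBA in both batches of each technique, by 0.995 and 2.65 percentage points in scRNA-seq (8_8 and 9_1) and by 0.378 and 0.328 in Live-seq (8_8 and 9_4), and no test was made of it. By scRNA-seq 4 of 86 members were called, 3 higher and 1 lower (4.65%, beside 11.4% of all genes). This count depended on the fit, with 5 higher and 11 lower by DESeq2 (18.6%, beside 18.2%) and 2 higher and 23 lower when libraries were scaled to counts outside the members (29.1%, beside 15.5%). The member median was -0.34, against 0.04 for all genes. It was -0.67 against 0.01 without batch 8_8 but 0.07 against 0.04 without batch 9_1, so that the lower median rests on batch 9_1.

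Rpl29, a large-subunit protein that is not essential in mice, stood at 316 and 135 CPM in ASPC_Pre against 92.8, 65.7 and 55.1 in IBA (log2 fold change 1.80, SE 0.27, adjusted p = 0.00606). In Live-seq it stood at 213 and 126 against 48.7, 46.1 and 34 CPM, and neither technique showed an overlap among these sums, though the IBA cells of batch 8_1, which were not in the fit, reached 136 CPM at 0 h. Rpl26 was higher once more (log2 fold change 0.85, SE 0.20, adjusted p = 0.0312), with 335 and 260 CPM in ASPC_Pre, above the 124 to 232 CPM of the fitted IBA sums but overlapping the 246 to 309 CPM of batch 8_1. It lost the call under 5 of 10 alternatives. In Live-seq its IBA values of 69.6 to 94.4 CPM overlapped the 34.1 to 119 CPM of RAW_Mock. Within batches, IBA was higher in 8_8 and 9_4 but not in 7. Rpl37 was lower by the fit (-0.92, SE 0.26, adjusted p = 0.0493), yet its 136 CPM in both batches lay within the range of the IBA sums, which reached 400 CPM. Rpl37 lost the call under 7 of 10 alternatives, and without batch 9_1 none of the 4 was called.

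Rpl39l, the testis paralogue of Rpl39, was found mostly in the progenitors. It had 17.5 and 8.82 CPM in ASPC_Pre and 4.73 CPM in ASPC_Post, and counts in 29 of 60 ASPC_Pre cells (48.3%) and 8 of 35 ASPC_Post cells (22.9%) of scRNA-seq. By contrast 2 IBA cells, 1 RAW_LPS and 1 RAW_Mock cell had any (1.31, 0.671 and 0.637% of the cells), at median totals of 722319 counts per ASPC_Pre and 467990 per IBA cell. Pooled, the scRNA-seq ratio of ASPC_Pre to IBA was 454, with a 95% counting interval of 125 to 3758 that covers counting error only, since IBA held 2 counts. It passed the filter on low counts only through the progenitors, where it is high, so that its call (adjusted p = 0.0358) is no independent evidence of the difference. The fitted log2 fold change depends on the prior count, and the call was lost with any 1 batch left out (adjusted p 0.0562, 0.215 and 0.0613 without 8_8, 9_1 and scRNA). In Live-seq 15 of 61 ASPC_Pre cells (24.6%) and 0 of 44 IBA cells had counts. Pooled, this was 10.1 CPM in ASPC_Pre, at least 91.7-fold higher than a floor of 3 counts over all IBA cells (0.111 CPM). Its windows are found in no other gene. Of the IBA cells of batch 8_1, 4 of 70 had a count at 0 h, 0 of 49 at 1 h and 5 of 43 at 4 h.

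**Figure D4:**
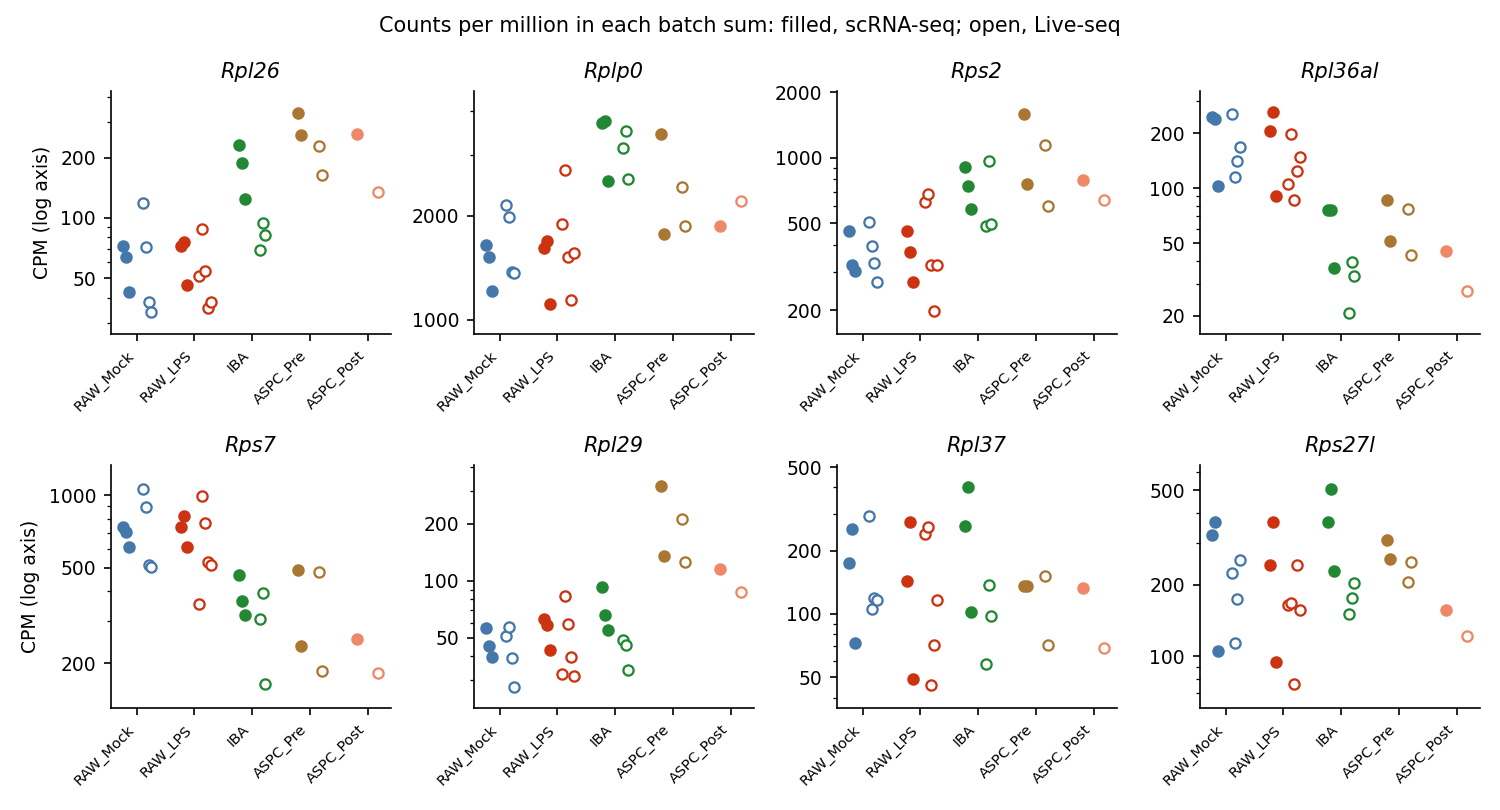
CPM (log axis) of 8 members in each sum of a batch and state, filled for scRNA-seq and open for Live-seq. Rpl26, Rplp0 and Rps2 are higher and Rpl36al and Rps7 lower in IBA than in RAW_Mock in scRNA-seq. Rpl29 is highest in ASPC_Pre, and Rpl37 and Rps27l overlap between cell types across batches.

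In Live-seq no member was called between ASPC_Pre and IBA, beside 0.0147% of all genes, with 4 members below an unadjusted p of 0.05 and 1 called by DESeq2 (1.16%, beside 2.03% of all genes). The member median was 0.56, opposite to that of scRNA-seq, while all genes had -0.05, and the values were 0.15 and -0.49 when libraries were scaled to counts outside the members. Here the fitted values and the shares, which were lower in ASPC_Pre, point in different ways. The techniques correlated across members with a Pearson's r of 0.90, which was 0.60 without Rpl39l (other genes, 0.63).

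Whether a cytoplasmic biopsy gives the same proportion of ribosomal protein counts as a whole cell was examined next. Within batch 8_8, the one batch with both techniques, the share was lower in Live-seq in each of 4 states, with 3.11 against 4.51% in RAW_Mock, 2.88 against 4.15% in RAW_LPS, 3.73 against 5.43% in IBA and 3.35 against 4.44% in ASPC_Pre, which is 0.687 to 0.755 of the scRNA-seq value. The states share a batch and are not replicates. Over all batches the sums overlapped, from 2.03 to 6.20% in Live-seq and from 2.6 to 5.43% in scRNA-seq. No member was called between the techniques, beside 0.476% of all 13663 genes, of which 64 of 65 were lower in Live-seq. One member, Rpl4, had an unadjusted p below 0.05 (log2 fold change 0.33, SE 0.13, adjusted p = 0.440), and DESeq2 called none, beside 0.644% of all genes. The member median was -0.18 and that of all genes -0.23. Without batch 6 they were -0.43 and -0.17, with 38 members below an unadjusted p of 0.05. Within batch 8_8, with its states as a block, they were -0.46 and -0.63, with 20 below that p. The share of all genes below it was not worked out. The fits over several batches take sums of the same batch as independent, and that within batch 8_8 takes states of 1 batch as repeats. Their p-values therefore do not measure the spread between batches. No member was called in either fit, beside 0.198% of all genes without batch 6 and 0% of all genes within batch 8_8. The ratio of large- to small-subunit counts was 1.31 to 1.71 in Live-seq and 1.22 to 1.63 in scRNA-seq with the highest values in IBA in both. In Live-seq, IBA (1.63 to 1.71) did not overlap RAW_Mock (1.43 to 1.47). In scRNA-seq the ranges overlapped across batches (1.42 to 1.63 and 1.25 to 1.44), but IBA was higher within each batch. The ratios were 1.55 against 1.31 in 8_8, 1.42 against 1.25 in 9_1 and 1.63 against 1.44 in scRNA.

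The adipogenic cocktail was given in 1 batch per technique, which allows values but no test. The share was 2.6% in ASPC_Post and in ASPC_Pre of scRNA-seq batch 9_1, and 2.03 and 2.13% in Live-seq batch 9_4. Among genes with at least 50 CPM in 1 of the groups, 0 of 78 members were higher and 1 was lower by more than 1.5-fold in scRNA-seq, beside 20.2% and 26% of all genes, and 0 and 3 of 74 in Live-seq, beside 17.3% and 27.8%. The difference between these shares was not tested. Rps27l was past it in both, with 256 CPM in ASPC_Pre by scRNA-seq (ratio 0.608, 95% counting interval 0.587 to 0.631) and 122 against 249 CPM in Live-seq (0.492, 0.470 to 0.514). These intervals cover counting error only, and take reads without molecular identifiers as independent. In Live-seq, Rps19bp1 (19.6 against 51.2 CPM) and Rpl7l1 (79.9 against 123 CPM) were lower as well.

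IBA cells after sampling were examined to see whether these abundant messages register the procedure. Cells not sampled (0 h) held 7.74% ribosomal protein counts, cells lysed at 1 h 6.56% and at 4 h 7.94%, and single cells ranged over 3.86 to 12.9%, 3.47 to 10.5% and 5.71 to 18.4%. The distributions overlapped widely, and the 1 h value was the lowest. At 1 h the member median was -0.29 on the log2 scale while that of all genes was near 0, and at 4 h it was 0.04. Of 81 members with at least 50 CPM, 0 were higher and 1 lower by more than 1.5-fold at 1 h, beside 4.92% and 5.82% of all genes. The lower one was Rpl13a, of the translational silencing complex of macrophages, with 61.2 against 92.2 CPM. At 4 h no member was past this fold in either direction, beside 3.92% and 5.90%. Each time is 1 sum of 1 batch, and no test was possible.

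Some cells were sampled more than once, and the labels pair the samples before and after treatment. Of 4 RAW cells, 3 had a higher share after LPS (2.85 to 3.05%, 2.62 to 4.13% and 2.18 to 3.45%) and 1 a lower one (4.48 to 3.19%). The labels give order 1 for both samples of the second of these cells. Of 9 ASPC pairs, 5 were higher after the cocktail, among them the largest change from 2.27 to 6.36%, and 4 were lower, among them 3.24 to 2.04%. Fewer genes were detected in the second sample in all 5 ASPCs that were higher (7859 and 2057 in the widest case) and more in 3 of the 4 that were lower, and the part of this in the shares was not tested. The study also matched ASPCs by genetic barcodes, which were not used here, so that not every labelled pair need be 1 cell. Neither set moved in 1 direction, and the number of members with a count stayed between 81 and 85 except in 1 RAW cell, where it was 71 before and 84 after.

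**Figure D5:**
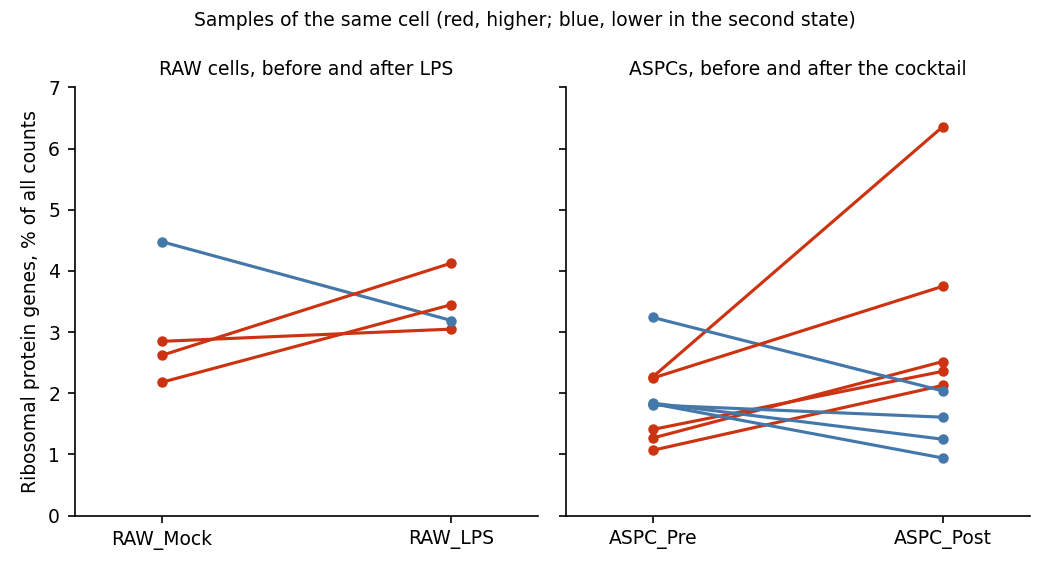
Ribosomal protein share (y axis, percent of all counts) of both samples that the labels pair as 1 cell, for 4 RAW cells and 9 ASPCs, with a line per pair. Red lines rise and blue lines fall, with 3 of 4 RAW cells and 5 of 9 ASPCs higher in the second state.

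The members moved together from sum to sum. Each member's log2 CPM was correlated with the summed CPM of the other members, and the median Pearson's r was 0.77 over 12 scRNA-seq sums and 0.80 over 15 Live-seq sums, against 0.05 and -0.32 for other genes. The sums share batches and totals, so that these are descriptions. Members that did not follow included Rpl39l (-0.31 and -0.42) and Rpl24 (0.36 and -0.18), both near 0 CPM in most sums. Others were Rpl29 and Rpl26 (0.01 and 0.04 in scRNA-seq, -0.03 and 0.01 in Live-seq). Rps27l (-0.12) and Rpl13a (-0.02) did not follow in Live-seq. Rpl39l, Rpl29 and Rpl26 are described between cell types above.

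Other genes of the ribosome and of translation were read beside the members, in comparisons where 37.6% (IBA against RAW_Mock), 11.4% (ASPC_Pre against IBA) and 1.19% (LPS) of all genes were called by scRNA-seq. Of 20 translation genes, 4 were higher and 2 lower in IBA than in RAW_Mock by scRNA-seq, among them the elongation factor subunit Eef1d with a log2 fold change of 0.94 (SE 0.20, adjusted p = 0.00513) and the initiation factor subunit Eif3f with -0.99 (SE 0.17, adjusted p = 0.00188). Of 25 genes of ribosome biogenesis, 1, Myc, was higher (5.70, SE 0.90, adjusted p = 0.00120) and 5 were lower, with the nucleolar GTPase Gnl3 at -1.54 (SE 0.20, adjusted p = 3.84e-04). The mitochondrial ribosome, a separate particle, had 5 of 77 higher and 9 lower, among them Mrpl49 at 1.58 and Mrpl23 at -1.68. In ASPC_Pre against IBA, 5 of 25 biogenesis genes were lower, with Gar1 at -2.86 (SE 0.47, adjusted p = 0.00857) and Dkc1 at -1.86 (SE 0.41, adjusted p = 0.0251), both of the particles that pseudouridylate ribosomal RNA, and none was higher. The median of the biogenesis list there was -0.85, below the -0.34 of the ribosomal protein genes and the 0.04 of all genes. Of the translation genes, Eif3f was higher and Hnrnpa1 and Fau were lower in this comparison, and 6 of 77 mitochondrial ribosomal proteins were lower. After LPS, Mrpl52 alone of these 3 lists was called, with a log2 fold change of 1.27 (SE 0.21, adjusted p = 0.0263).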

How the data were processed

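The authors aligned the first 75 bases of Smart-seq2 reads to mm10 with STAR 2.6.1c (demultiplexed with bcl2fastq 2.19.1), used HTSeq, without strand and without molecular identifiers, to count reads that mapped to 1 place, and deposited raw counts for 1012 cells in 1 table. Here counts were summed per batch and state (at least 3 cells) and tested with edgeR 4.0.16 in R 4.3.3 (glmQLFit in legacy mode, TMM, state and batch, Benjamini-Hochberg adjustment over all genes, called below 0.05). Live-seq against scRNA-seq had no batch term. Genes needed 2 counts in 15% of the cells of a scRNA-seq state and filterByExpr with a minimum count of 2 and proportion of 0.05. The prior count was 0.125. Counts of members with an unadjusted p below 0.05 stand without a share of all genes, which was not worked out. P-values of the state comparisons measure how far the differences between states vary from batch to batch, which may be technical. Those of Live-seq against scRNA-seq take sums of the same batch as independent and do not measure the spread between batches. No label names separate animals for the lines. Batch pairs samples, as the labels give a shared batch (correlations of deviations of RAW_LPS and RAW_Mock of 0.25, 0.07, 0.01 and 0.12 in Live-seq and 0.30, 0.49 and 0.54 in scRNA-seq). Where a group was 1 sum, CPM with a pseudocount of 0.5 were set against a fold of 1.5. DESeq2 1.42.0, RLE scaling, no low-count filter, the edgeR 4 fit and other scalings were alternatives. The code was tested on simulated counts. Counting intervals are exact and cover counting error only. Transcripts were from GENCODE vM21 and starts from RefSeq, both GRCm38 like the authors' build but of later annotation, and the principal transcript was the one of the best APPRIS and support level. Ribosomal protein genes named are paralogues and parents, Rplp0, Rplp1, Rplp2, Rpsa, Rps27a, Rps6, the 6 most and least counted, and up to 5 called members with the largest rise and fall per comparison, and of other lists the 2 with the largest rise and fall. Members and lists were chosen with earlier results of these data known. One gene of the translation list is not reported here.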

Additional observations from a re-analysis of the deposited data

Results flagged for a closer look

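Among the 4 RAW_Mock and 5 RAW_LPS sums of Live-seq, the share and the named members were checked for a sum that lies far from the others of its group (a gap to the nearest sum beyond Dixon's 95% critical value). Chance gives such a result in about 1 of 20 groups, and 14 of 72 checks did. Batch 6 was the high one in 11 of them, and the checks are not independent since they share sums. In RAW_LPS, batch 6 had a ribosomal protein share of 5.87%, and 501 CPM of Rpl22, 187 CPM of Rpl22l1 and 644 CPM of Rpl36a. In RAW_Mock it had 527 CPM of Rpl22, 636 CPM of Rpl36a, 292 CPM of Rpl37, 211 CPM of Rpl39, 650 CPM of Rplp2, 33 CPM of Rps27rt and 88.0 CPM of Rpl10-ps3. Batch 8_8 was the high one for genes near 0, with 1.02 and 0.508 CPM of Rpl10l in RAW_Mock and RAW_LPS and 0.163 CPM of Rpl39l in RAW_Mock. Batch 6 had 8 and 4 cells in these sums, and the part of that in the values was not tested.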

How the results depend on the processing

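The count of members called is given with its share of the members and the share of all genes called. For IBA against RAW_Mock by scRNA-seq, 16 members (18.6%, all genes 37.6%) became 25 with DESeq2 (29.1%, 41.5%), 6 with an absolute log2 fold change above 1 required (6.98%, 33.4%), 5 with no replicate block (5.81%, 30.1%), and 6 to 12 when a batch was left out, with 6 without batch scRNA (6.98%, 22.4%). For ASPC_Pre against IBA by scRNA-seq, 4 (4.65%, 11.4%) became 16 with DESeq2 (18.6%, 18.2%), 10 with the edgeR 4 fit (11.6%, 20.7%), 25 when scaled to counts outside the members (29.1%, 15.5%), 2 with a log2 fold change above 1 (2.33%, 10.8%) and 2 with no replicate block (2.33%, 6.58%). With a batch left out there were 0 to 7, which were 7 without 8_8 (8.14%, 10.6%), 0 without 9_1 (0%, 0.312%) and 1 without scRNA (1.16%, 3.06%). By Live-seq, IBA against RAW_Mock had 3 called by DESeq2 (3.49%, 11%) and 1 (1.16%) each with RLE, the edgeR 4 fit, scaling to member counts alone and no replicate block (all genes 2.16, 5.41, 2.12 and 4.73%), and ASPC_Pre against IBA had 1 by DESeq2 (1.16%, 2.03%). A further scRNA-seq count was restricted, after the data had been seen, to the 43 of 86 tested members with at least 50% unique windows. It was 9 of 43 for IBA against RAW_Mock, beside 16 of 86 unrestricted and 37.6% of all genes. For ASPC_Pre against IBA it was 2 of 43, beside 4 of 86 and 11.4%. The share after LPS moved to -1.02 points in Live-seq when the 20 negative-control genes were left out of all counts. In scRNA-seq it turned to 0.0117 points as a mean over cells and ranged from -0.295 to 0.0712 with a batch left out, 0.00396 being the value without batch scRNA. The cause was not tested. The remaining 85 alternatives of the counts and shares kept them within 1.5 times or 1 SD. Most of these were counts of 0 members that stayed at 0 and could not fall, so that they do not show stability. For ASPC_Pre against IBA by scRNA-seq, most alternatives moved the count. The 12 calls followed through the alternatives (not Rplp1, the 7 members given by their range or the genes of other lists) kept their sign under all, 96 of 120 times with the call.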
